A study of Homo sapiens with 10 samples.

Results

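The Notch receptors NOTCH1, NOTCH2 and NOTCH3, the ligands JAG1, JAG2 and DLL1 and the target genes HES1, HES2, HEY1 and NRARP were followed in A253 cells with a deletion in DUSP1. These 10 genes were picked by name from the 58735 genes of the DUSP1 count table, and each of the 10 was found once. A253 is a human squamous cell carcinoma line from a salivary gland, and DUSP1 is a phosphatase that switches off MAP kinases. The study sequenced polyadenylated RNA of control and engineered cells to find genes that differ after the loss of DUSP1 or SOX2. The SOX2 libraries were not analysed here.

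Control cells carried a guide RNA against dTomato, a fluorescent protein gene that human cells lack. Cl1 and Cl10 carried a pair of guide RNAs placed in the introns on either side of DUSP1 exon 2, and both clones were DUSP1-/+, with the exon deleted on 1 allele. The study reports that neither clone had detectable DUSP1 protein. It proposes that inactivating indels on the remaining allele could be the reason. Guides were delivered with a lentivirus and puromycin selection, Cas9 with a second lentivirus and blasticidin selection. Each of Cl1 and Cl10 is a single-cell clone, so the deletion cannot be told apart from other differences between clones. Whether the control was also a clone is not given in the sources used here. Each group had 2 libraries, and their depth ran from 47016495 to 70986593 counts. Nothing in the labels says that the 2 libraries came from separate cultures, so the p-values measure only the spread between these libraries, which may be technical. Both clones were compared with the same control libraries, so a change seen in both clones is not 2 independent results.

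Notch receptors are membrane proteins that are cut after binding a ligand on a neighbouring cell, first by an ADAM protease and then by gamma-secretase. The freed intracellular domain joins the DNA-binding protein RBPJ and Mastermind coactivators in the nucleus and turns on genes of the HES and HEY families. In stratified squamous epithelia, Notch signalling is known for moving basal cells towards differentiation, and NOTCH1 is often inactivated by mutation in squamous cell carcinomas.

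Levels are CPM, counts per 1000000 of the library total, scaled by the trimmed mean of M-values over the 6 libraries. Each adjusted p is from edgeR's quasi-likelihood test with Benjamini-Hochberg adjustment over all genes tested in that comparison, and fold changes are on the log2 scale with a standard error (SE, n = 2 libraries in each group). A gene passed at an adjusted p under 0.05, and was called if its absolute log2 fold change was also above 1. In bulk RNA, fewer cells with a transcript and less of it per cell cannot be told apart.

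DUSP1 (ENSG00000120129, hg38 chr5:172768096-172771195), the targeted gene, had 12.9 and 11.04 CPM in the control libraries, 5.28 and 6.15 CPM in Cl1, and 8.60 and 7.21 CPM in Cl10. Both clones lay below both control libraries, and Cl1 lay lowest. DUSP1 fell in each clone, the log2 fold change being -1.07 in Cl1 (SE 0.149, adjusted p = 0.000292) and -0.59 in Cl10 (SE 0.134, adjusted p = 0.0113). Without Cl10 replicate 2 the Cl10 value was -0.48 and no longer passed (adjusted p = 0.0794, 2.22e-10 to 0.0794 over the alternatives). DUSP1 was higher in Cl10 than in Cl1 by 0.48 (SE 0.13, adjusted p = 0.00817). That difference did not pass without Cl10 replicate 1 (0.35, adjusted p = 0.111) or with the median of the 50 nearest tested genes (the local median) subtracted (0.26, adjusted p = 0.12), in a range of 2.98e-05 to 0.12 over the alternatives. Gene counts include reads from both alleles and from the exons that were not deleted.

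The 2 control libraries stood apart from each other in a way that followed transcript length. Over 11638 genes with a mean of at least 5 CPM, the log2 ratio of replicate 1 over replicate 2 in the control had a median of -0.22 for the 1924 genes with transcripts up to 2 kb and of 0.35 for the 579 genes over 10 kb. Across genes, which are not independent replicates, Spearman's rank correlation of this ratio with length was 0.652 in the control, -0.23 in Cl1 and -0.239 in Cl10. The control replicates differed by more than 0.5 in 377 genes (3.24%), against 54 genes (0.464%) in Cl1 and 24 genes (0.206%) in Cl10. NOTCH1, NOTCH2, NOTCH3 and JAG1 were among those 377, with ratios of 0.51, 0.73, 0.64 and 0.59. The other 6 members had control ratios between -0.15 for HES1 and 0.13 for DLL1. Results of these 4 genes against the control are given with and without each control library, where the group left with 1 library is assumed to vary like the other group. The control pair differed in more genes than either clone pair. With 1 control library left, adjusted p-values can therefore be far too small. Passes, counts and ranges of adjusted p that rest on such fits are not taken below as evidence of a change.

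**Figure D1:**
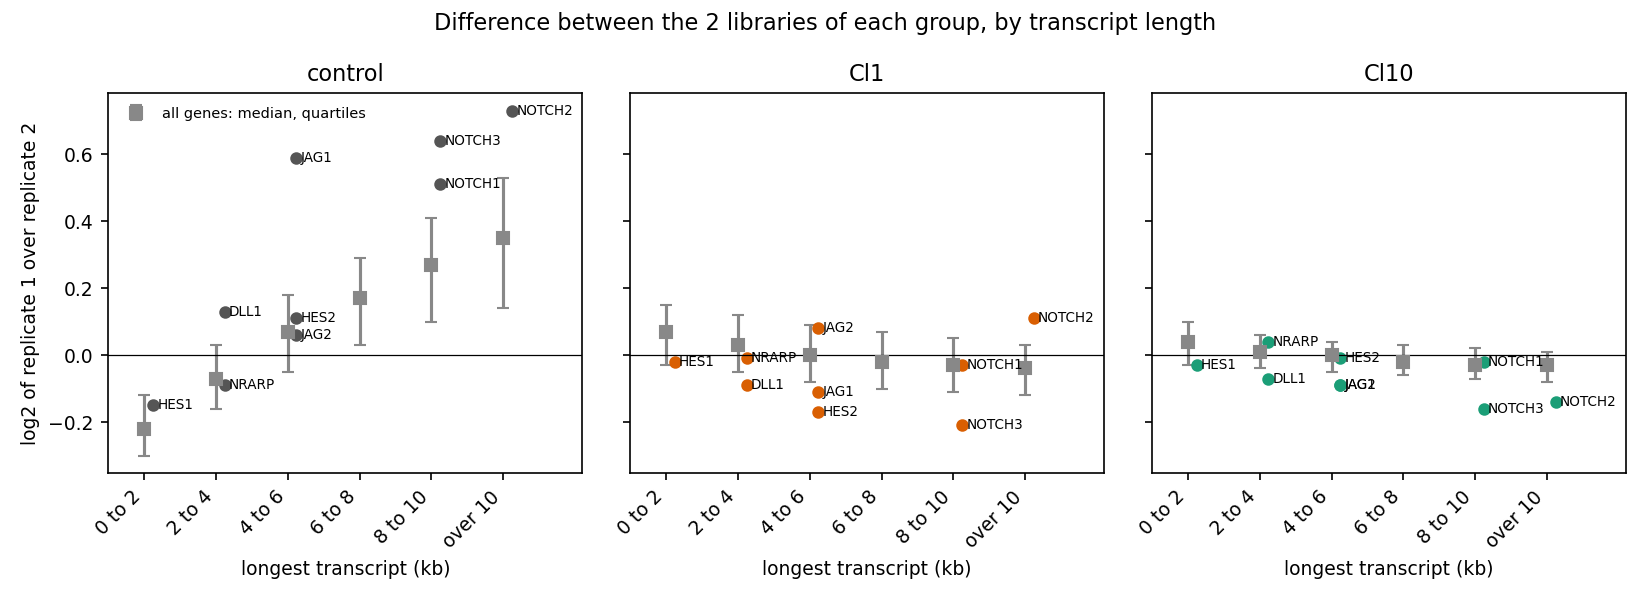
Log2 ratio of replicate 1 over replicate 2 (vertical axis) by length of the longest transcript in kb (horizontal axis) in each group, with grey squares and bars for the median and quartiles of all genes with a mean of at least 5 CPM and coloured points for the members above that level (HEY1 is below it). The control medians climb from -0.22 to 0.35 with length while those of Cl1 and Cl10 stay between -0.04 and 0.07, and NOTCH2 lies at 0.73 in the control.

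In Cl1, 5 of the 10 members rose, namely NOTCH1, NOTCH3, JAG2, DLL1 and HES2, where 12.4% of all 20153 genes tested rose. No member fell by edgeR, none fell at an unadjusted p under 0.05 (0 of 10) or by DESeq2 (0 of 10), and 12.8% of all genes fell. In Cl10, 1 member rose (JAG2) and 4 fell (NOTCH3, HES1, HES2 and HEY1), where 20.6% of all 19875 genes tested rose and 21.8% fell. Between the clones, 8 members were lower in Cl10 than in Cl1, where 24.1% of all 19818 genes tested were lower and 24.9% higher. No member was higher in Cl10 than in Cl1 by edgeR, at an unadjusted p under 0.05 (0 of 10) or by DESeq2 (0 of 10). The exceptions to the 8 were NOTCH2 and JAG1. All 10 members passed the filter on low counts in all 3 comparisons.

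The median log2 fold change of the members was 0.5 in Cl1 (-0.013 over all genes tested), -0.22 in Cl10 (-0.011) and -0.46 for Cl10 against Cl1 (-0.0012). It was 0.67 in Cl1 and -0.14 in Cl10 without control replicate 1, and 0.32 and -0.33 without control replicate 2. With the local median subtracted it was 0.54 in Cl1 and -0.39 in Cl10. By role, the receptors had medians of 0.68 in Cl1 and -0.24 in Cl10, the ligands 0.66 and 0.43, and the targets -0.03 and -0.57. The receptor medians were those of NOTCH1, and became 0.95 in Cl1 and 0.034 in Cl10 without control replicate 1, and 0.45 and -0.48 without control replicate 2. In Cl10 the receptor median was -0.49 with the local median subtracted. The ligand median in Cl10 became 0.19 without control replicate 2. The target median in Cl1 turned sign when control replicate 2 (0.034) or Cl1 replicate 1 (0.053) was left out. It also turned with the local median subtracted (0.046). Only NOTCH3 was called in Cl1 and only NOTCH3 in Cl10, where 7.54% and 13.4% of all genes tested were called. NOTCH3 and HES2 were called between the clones (10.8% of all genes tested). The Cl10 counts moved with single libraries. They were 3 higher and 5 lower without control replicate 1, 2 and 8 without control replicate 2, 0 and 2 without Cl10 replicate 1, and 0 and 3 without Cl10 replicate 2. By DESeq2 they were 2 higher and 3 lower. The 8 members lower in Cl10 than in Cl1 became 5 without Cl10 replicate 1 and 6 without Cl10 replicate 2.

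NOTCH3 (ENSG00000074181, hg38 chr19:15159038-15200995, minus strand) encodes a receptor with a shorter extracellular domain than NOTCH1. It had 121 and 77.1 CPM in the control libraries, 228 and 265 CPM in Cl1, and 38.8 and 43.3 CPM in Cl10. The groups did not overlap, with both Cl1 libraries highest and both Cl10 libraries lowest. NOTCH3 rose in Cl1 by 1.32 (SE 0.179, adjusted p = 0.000241) and fell in Cl10 by a log2 fold change of -1.27 (SE 0.197, adjusted p = 0.00254). Its difference between the clones was -2.58 (SE 0.0835, adjusted p = 8.17e-10), the largest among the members in these 3 comparisons. Without control replicate 1 the values were 1.68 in Cl1 and -0.92 in Cl10, which was no longer called. Without control replicate 2 they were 1.03 and -1.56. The local median was 0.1 in Cl1 and 0.01 in Cl10.

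NOTCH1 (ENSG00000148400, hg38 chr9:136494433-136546048, minus strand) encodes the receptor best known for its part in epidermal differentiation. It had 97.8 and 68.6 CPM in the control libraries, 131 and 134 CPM in Cl1, and 70.0 and 70.8 CPM in Cl10. Both Cl1 libraries were above all others, and the Cl10 libraries lay between the 2 control libraries. NOTCH1 rose in Cl1 by 0.68 (SE 0.15, adjusted p = 0.00597), with 0.95 without control replicate 1 and 0.45 without control replicate 2. In Cl10 it was -0.24 (SE 0.156, adjusted p = 0.261) and did not pass, and its sign depended on the control library, with 0.034 without replicate 1 and -0.48 without replicate 2. With both control libraries kept, NOTCH1 passed in Cl10 with no filter (-0.25, adjusted p = 0.0418) and with the local median of 0.25 subtracted (-0.49, adjusted p = 0.0447). The clones differed by -0.91 (SE 0.0572, adjusted p = 1.18e-07), and that comparison uses no control library.

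NOTCH2 (ENSG00000134250, hg38 chr1:119911553-120100779, minus strand) encodes the receptor with the longest transcript of the members, 11.42 kb. It had 123 and 73.8 CPM in the control libraries, 118 and 109 CPM in Cl1, and 99.7 and 109.5 CPM in Cl10. The control libraries spanned those of both clones. NOTCH2 did not pass in Cl1 (0.21, adjusted p = 0.443), in Cl10 (0.09, adjusted p = 0.747) or between the clones (-0.11, adjusted p = 0.18). Without control replicate 1 it was 0.62 in Cl1 and 0.5 in Cl10. Without control replicate 2 it was -0.11 in Cl1 and -0.23 in Cl10, so its sign in each clone depended on the control library. NOTCH2 passed in neither clone under the alternatives that kept both control libraries. Without Cl1 replicate 2 the difference between the clones was -0.18 and passed (adjusted p = 0.000446, in a range of 0.000446 to 0.802). NOTCH2NLA, a gene that resembles part of NOTCH2, had 43 and 13 counts in the control, 58 and 45 in Cl1, and 24 and 24 in Cl10. NOTCH2 had at least 3952 counts in every library. NOTCH2NLA did not pass in Cl1 (0.98, adjusted p = 0.0898) or Cl10 (0.02, adjusted p = 0.983), and was lower in Cl10 than in Cl1 (-0.97, adjusted p = 0.0205).

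On the scale of CPM per kb of exon, which allows levels of different genes to be compared, NOTCH3 made up 45.9% and 45.3% of the sum of the 3 receptors in the control libraries. It made up 58.1% and 62.0% in Cl1 and 26.3% and 27.4% in Cl10. NOTCH3 was the receptor with the largest share in control and Cl1, and the one with the smallest share in Cl10. NOTCH2 had 26.2% and 24.4% in the control, 16.8% and 14.3% in Cl1, and 38.0% and 38.9% in Cl10, the reverse order of groups. NOTCH1 had 27.9% and 30.3%, 25.1% and 23.6%, and 35.7% and 33.7%. None of the 3 shares overlapped between groups, although the sum itself differed between the control libraries (28.0 and 18.1 CPM per kb). Shares of 1 sum are not independent of each other, and NOTCH2 itself passed in none of the 3 comparisons. The receptor sum was 41.8 and 45.4 in Cl1 and 15.7 and 16.8 in Cl10. With the length of the longest transcript in place of merged exons the mean NOTCH3 share was 40.0% in the control, 54.8% in Cl1 and 22.5% in Cl10. With no length scaling it was 35.2%, 50% and 19%, and NOTCH2 had 34.8%, 23.0% and 48.4%. The shares were not tested.

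JAG1 (ENSG00000101384, hg38 chr20:10637684-10673999, minus strand), a ligand of the Serrate family, had the highest mean level per kb of the members in each of the 3 groups, although HES1 (22.3 CPM per kb) was above it (18.7) in control replicate 2. It had 261 and 174 CPM in the control libraries, 288 and 312 CPM in Cl1, and 289 and 308 CPM in Cl10. All 4 clone libraries were above both control libraries, and control replicate 1 was nearest to them. JAG1 did not pass in Cl1 (0.47, SE 0.168, adjusted p = 0.0607) or in Cl10 (0.46, SE 0.178, adjusted p = 0.0747). DESeq2 passed both, at 0.47 in Cl1 (adjusted p = 0.0261) and 0.47 in Cl10 (adjusted p = 0.0105). Both also passed with no filter, with 1 fit over the 6 libraries and with the replicate number as a block, and Cl1 with the local median subtracted. Without control replicate 1 the values were 0.79 in Cl1 and 0.78 in Cl10. Without control replicate 2 they were 0.2 and 0.19. Over the alternatives the adjusted p reached 0.257 in Cl10. The clones had a log2 difference of -0.0032 (adjusted p = 0.974).

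JAG2 (ENSG00000184916, hg38 chr14:105140982-105168824, minus strand), the other Serrate-type ligand, had 107 and 103 CPM in the control libraries, 177 and 168 CPM in Cl1, and 136 and 145 CPM in Cl10. The groups did not overlap, with the control lowest and Cl1 highest. JAG2 rose by 0.72 in Cl1 (SE 0.114, adjusted p = 0.000724) and by 0.43 in Cl10 (SE 0.0825, adjusted p = 0.00622). Cl10 was lower than Cl1 by a log2 fold change of -0.29 (SE 0.0616, adjusted p = 0.00178). The Cl10 result did not pass without Cl10 replicate 1 (0.48, adjusted p = 0.0675) or replicate 2 (0.38, adjusted p = 0.161), in a range of 9.47e-20 to 0.161. The difference between the clones did not pass without Cl10 replicate 1 (-0.24, adjusted p = 0.0874, range 5.79e-13 to 0.0874).

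DLL1 (ENSG00000198719, hg38 chr6:170282206-170306565, minus strand), a ligand of the Delta family, had 27.1 and 24.8 CPM in the control libraries, 39.6 and 42.3 CPM in Cl1, and 23.6 and 24.8 CPM in Cl10. Both Cl1 libraries were above the others, and Cl10 overlapped the control. DLL1 rose in Cl1 by 0.66 (SE 0.11, adjusted p = 0.00102) and did not pass in Cl10 (-0.1, SE 0.0886, adjusted p = 0.412). Cl10 was lower than Cl1 by a log2 fold change of -0.75 (SE 0.0687, adjusted p = 2.18e-06). Genes around DLL1 were lower in Cl10, with a median of -0.61 against the control and -0.48 against Cl1 over the 50 nearest tested genes. With that median subtracted, DLL1 was 0.51 in Cl10 and passed (adjusted p = 0.00462), so its direction turned. Without control replicate 2 it was -0.17 in Cl10. FAM120B lies on the opposite strand and its span overlaps that of DLL1. Whether their exons overlap was not examined, and the strand setting of the counting is not given in the sources used here. The sample labels name a stranded library kit, and the methods of the study name another kit. FAM120B had 3096 and 2425 counts in the control, 3111 and 2445 in Cl1, and 2228 and 1594 in Cl10, with 0.08 in Cl1 (adjusted p = 0.623) and -0.35 in Cl10 (adjusted p = 0.0204). Between the clones FAM120B was lower in Cl10, at -0.42 (adjusted p = 0.000473). Its part in the DLL1 counts was not tested.

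Among the 3 ligands, per kb of exon, JAG1 made up 54.1% and 45.2% of the sum in the control, 44.9% and 47.3% in Cl1, and 53.1% and 53.1% in Cl10. The JAG1 share overlapped between control and each clone. JAG2 had 32.3% and 39.1%, 40.1% and 37.1%, and 36.4% and 36.4%, which overlapped too. DLL1 had 13.7% and 15.7% in the control, 15.0% and 15.6% in Cl1, and 10.5% and 10.4% in Cl10, where both libraries were below all others. The ligand sum was 52.0 and 41.3 CPM per kb in the control, 69.1 and 70.9 in Cl1, and 58.6 and 62.3 in Cl10, with both clones above the control. The shares depended on the length used. With the longest transcript, JAG1 had a mean of 58.8% in the control, 55.3% in Cl1 and 62.0% in Cl10, and with no length scaling 61.8%, 58.4% and 64.4%. DLL1 had 11.3%, 11.9% and 7.90% with the longest transcript, and 7.54%, 7.97% and 5.22% with no scaling.

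**Figure D2:**
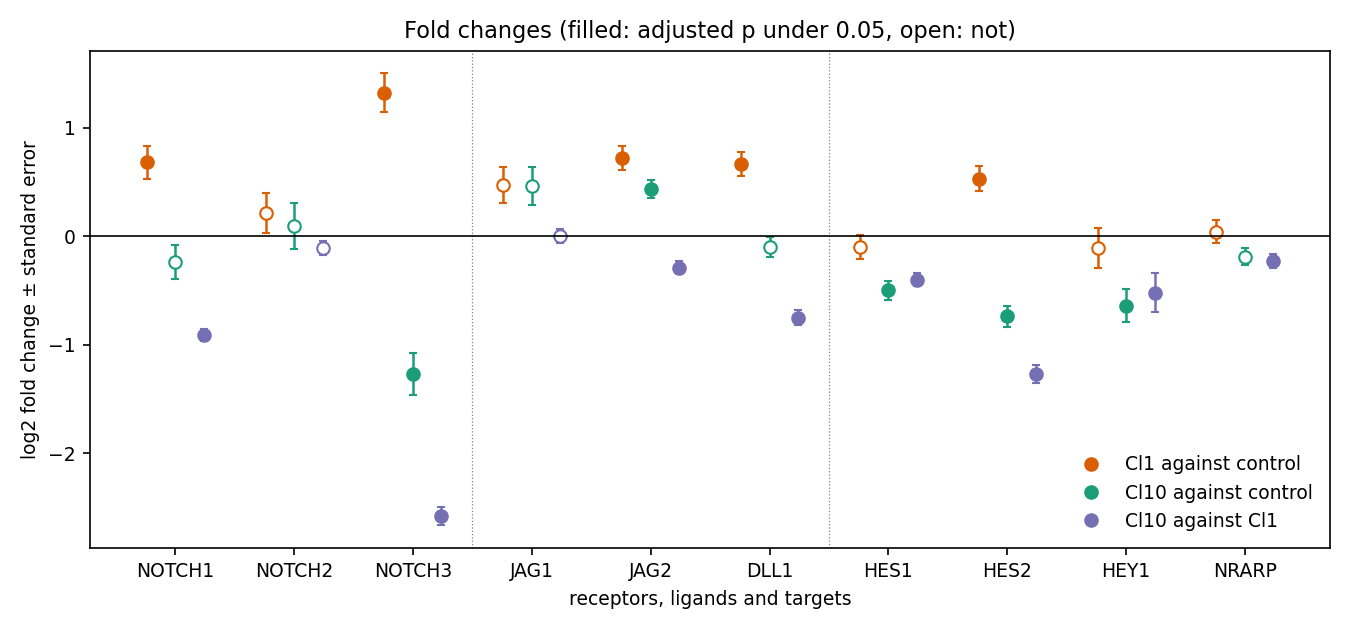
Log2 fold changes of the 10 members (vertical axis) with bars of 1 SE, for Cl1 against control, Cl10 against control and Cl10 against Cl1, filled where the adjusted p was under 0.05 and open where it was not. NOTCH3 runs from 1.32 in Cl1 to -1.27 in Cl10, JAG2 is filled above 0 in both clones (0.72 and 0.43), and HES1, HES2 and HEY1 are filled below 0 in Cl10 (-0.5, -0.74 and -0.64).

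HES1 (ENSG00000114315, hg38 chr3:194136148-194138732, plus strand), a transcriptional repressor and the best known target of Notch, had 41.3 and 46.0 CPM in the control libraries, 40.5 and 41.0 CPM in Cl1, and 30.5 and 31.2 CPM in Cl10. Both Cl10 libraries were below the other 4, and Cl1 lay just below the control. HES1 did not pass in Cl1 (-0.1, SE 0.109, adjusted p = 0.554) and fell in Cl10 by a log2 fold change of -0.5 (SE 0.0864, adjusted p = 0.00404). Cl10 was lower than Cl1 by -0.4 (SE 0.0628, adjusted p = 0.000204). The local median of HES1 in Cl10 was -0.13 against the control and -0.17 against Cl1. The Cl10 result did not pass without Cl10 replicate 1 (-0.47, adjusted p = 0.054, range 1.77e-20 to 0.054 over the alternatives).

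HES2 (ENSG00000069812, hg38 chr1:6412418-6424670, minus strand), a repressor of the same family, had 21.6 and 20.01 CPM in the control libraries, 28.2 and 31.8 CPM in Cl1, and 12.3 and 12.5 CPM in Cl10. The groups did not overlap and had the order of NOTCH3, with Cl1 highest and Cl10 lowest. HES2 rose in Cl1 by 0.53 (SE 0.115, adjusted p = 0.00553) and fell in Cl10 by a log2 fold change of -0.74 (SE 0.0929, adjusted p = 0.00104). The clones differed by -1.27 (SE 0.0833, adjusted p = 1.74e-07). Without Cl1 replicate 2 the Cl1 value was 0.45 and did not pass (adjusted p = 0.092, range 2.36e-05 to 0.092).

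HEY1 (ENSG00000164683, hg38 chr8:79762371-79767857, minus strand), a HES-related repressor, had the lowest level per kb of the members in each group. It had 3.51 and 3.40 CPM in the control libraries, 2.82 and 3.60 CPM in Cl1, and 2.22 and 2.20 CPM in Cl10, from 239 counts at most and 106 at least. Both Cl10 libraries were lowest, and the Cl1 libraries fell on either side of the control. HEY1 did not pass in Cl1 (-0.11, adjusted p = 0.703), where its sign turned without Cl1 replicate 1 (0.061) and with the local median subtracted (0.032). It fell in Cl10 by a log2 fold change of -0.64 (SE 0.153, adjusted p = 0.0144) and lay lower in Cl10 than Cl1, at -0.52 (SE 0.182, adjusted p = 0.0298). Neither passed with DESeq2 (adjusted p = 0.0505 and 0.118). Against the control, it did not pass without Cl10 replicate 1 (-0.64, adjusted p = 0.064) or replicate 2 (-0.64, adjusted p = 0.0648), in a range of 0.00221 to 0.0648 over the alternatives. Between the clones, it did not pass without Cl1 replicate 2 (-0.36), without Cl10 replicate 1 (-0.53) or replicate 2 (-0.52), or with library size alone as scaling (-0.45), in a range of 0.00238 to 0.161.

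NRARP (ENSG00000198435, hg38 chr9:137299631-137302271, minus strand), a target that acts back on the Notch transcription complex, had 39.8 and 42.3 CPM in the control libraries, 41.9 and 42.3 CPM in Cl1, and 36.3 and 35.2 CPM in Cl10. Both Cl1 libraries lay between the control libraries, and both Cl10 libraries were below the other 4. NRARP did not pass in Cl1 (0.04, SE 0.106, adjusted p = 0.824), where the sign turned without control replicate 1 (-0.0072) and with library size alone as scaling (-0.03). It did not pass in Cl10 (-0.19, SE 0.0792, adjusted p = 0.0868). It passed in Cl10 without control replicate 1 (-0.25, adjusted p = 0.000129), without control replicate 2 (-0.16, adjusted p = 0.0178) and with the local median of 0.22 subtracted (-0.41, adjusted p = 0.00684), in a range of 0.000129 to 0.525. Cl10 was lower than Cl1 by -0.23 (SE 0.0615, adjusted p = 0.00724). That did not pass without Cl10 replicate 1 (-0.25, adjusted p = 0.0657) or replicate 2 (-0.21, adjusted p = 0.141), or with library size alone (-0.16, adjusted p = 0.0574), in a range of 9.19e-05 to 0.141.

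Ordered by mean CPM per kb of exon, the control had JAG1 at 23.4 (SD 6.69, n = 2), HES1 at 21.2 (SD 1.6), JAG2 at 16.4 (SD 0.462), NRARP at 15.5 (SD 0.675) and NOTCH3 at 10.5 (SD 3.28). DLL1 at 6.79, NOTCH1 at 6.64, NOTCH2 at 5.86, HES2 at 3.85 and HEY1 at 0.63 followed. The libraries of JAG1 and HES1, of DLL1 and NOTCH1, and of NOTCH1 and NOTCH2 overlapped. Within each control library, however, NOTCH1 lay above NOTCH2 on this scale. Their shares of the receptor sum were 27.9% and 26.2% in replicate 1, and 30.3% and 24.4% in replicate 2. This order depended on the length used. With no length scaling NOTCH2 lay above NOTCH1 in both control libraries (123 and 73.8 against 97.8 and 68.6 CPM). The other pairs changed places between the control libraries. In Cl1 the order began with JAG1 at 32.3 (SD 1.78), JAG2 at 27.0 (SD 0.999) and NOTCH3 at 26.2 (SD 2.74), and the last 2 overlapped. HES1 came next, at 19.8 CPM per kb. In Cl10 the order began with JAG1 at 32.1 (SD 1.43), JAG2 at 22.01 (SD 0.994) and HES1 at 15.0 (SD 0.246), and NOTCH3 was at 4.36 CPM per kb (SD 0.339). NOTCH3 thus took place 5 in the control, 3 in Cl1 and 8 in Cl10.

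Promoters of NOTCH3 and HES2, the members with the largest differences between the clones, and of HES1, the member with an RBPJ motif, are shown as the 250 bases before the gene's start. RefSeq promoters on GRCh38.p14 were found for 8 of the 10 members, all but DLL1 and HEY1. They were searched on both strands for GTGGGAA, the core letters bound by RBPJ, and capitals mark the match. HES1 lies on the plus strand (chr3:194135898-194136147), has 59.2% GC, and holds the motif on the gene's strand, beginning 85 bases before the start. NOTCH3 (chr19:15200996-15201245, minus strand, 78.0% GC) and HES2 (chr1:6419920-6420169, minus strand, 76.4% GC) do not hold these letters in this window. The RefSeq start of HES2 lies inside the span that GENCODE gives for the gene.
HES1: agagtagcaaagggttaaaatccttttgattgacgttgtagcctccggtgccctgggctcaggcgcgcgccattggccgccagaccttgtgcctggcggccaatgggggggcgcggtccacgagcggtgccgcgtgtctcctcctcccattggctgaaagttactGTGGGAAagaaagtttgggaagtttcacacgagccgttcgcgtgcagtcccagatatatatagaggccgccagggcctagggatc
NOTCH3: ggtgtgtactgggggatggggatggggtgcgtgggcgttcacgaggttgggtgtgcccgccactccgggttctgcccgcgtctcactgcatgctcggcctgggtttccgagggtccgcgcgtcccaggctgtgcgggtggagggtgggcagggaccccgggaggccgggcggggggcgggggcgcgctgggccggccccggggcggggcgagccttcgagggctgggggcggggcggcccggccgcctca
HES2: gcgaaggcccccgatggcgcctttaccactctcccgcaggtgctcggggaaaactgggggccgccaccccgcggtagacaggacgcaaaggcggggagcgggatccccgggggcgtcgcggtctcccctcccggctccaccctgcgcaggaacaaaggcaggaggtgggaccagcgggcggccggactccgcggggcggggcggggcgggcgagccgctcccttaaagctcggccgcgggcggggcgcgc
Of the 8 promoters, 1 held the motif (12.5%), against 1906 of all 35116 promoters (5.43%). Of the 7 promoters of the other HES and HEY genes, 4 held it, those of HES4, HES5, HEY2 and HEYL. In the other 5 pathway lists none did, of 2, 11, 4, 6 and 7 promoters, and of the squamous lists 1 of 9 commitment promoters (CALML5) and 0 of 4 basal ones did. The match is a description of the letters only.

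Beyond the 10 members, 45 other genes of the pathway were followed in 6 lists. Of these, 42 were tested in Cl1, where 7 rose and 9 fell, and 42 in Cl10, where 10 rose and 10 fell. Between the clones 41 were tested, with 11 higher and 13 lower in Cl10. Over all genes tested, 12.4% rose and 12.8% fell in Cl1, 20.6% and 21.8% in Cl10, and 24.9% were higher and 24.1% lower between the clones. Their median log2 fold changes were -0.03 in Cl1, -0.01 in Cl10 and -0.03 between the clones. These counts moved when a library was left out. In Cl1 they were 12 and 11 without control replicate 1, and 5 and 3 without either Cl1 replicate. In Cl10 they were 15 and 16 without control replicate 1, 13 and 15 without control replicate 2, 6 and 8 without Cl10 replicate 1, and 4 and 6 without Cl10 replicate 2. APH1B, HES3 and HES5 had at most 3 counts in any library and were not tested. Where genes outside the naming rule are mentioned to complete a count, they were chosen after their values were seen.

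NOTCH4, DLL3 and DLL4 formed the list of other receptors and ligands, all 3 tested. DLL3, a divergent Delta-type ligand, had 3.38 and 3.87 CPM in the control, 1.91 and 1.32 CPM in Cl1, and 2.99 and 2.23 CPM in Cl10. Both Cl1 libraries were lowest. Its log2 fold change in Cl1 was -1.14 (SE 0.217, adjusted p = 0.00239), the 1 gene of the list that passed, with -0.91 without Cl1 replicate 2, which is under the fold threshold. It did not pass in Cl10 (-0.46, adjusted p = 0.0886), with -0.56 when control replicate 1 and -0.69 when Cl10 replicate 1 was left out. It passed there with no filter (-0.48, adjusted p = 0.0345) and with the replicate block (-0.47, adjusted p = 0.0481). The clones differed by 0.68 (adjusted p = 0.0258), which did not pass without Cl1 replicate 2 (0.45), without Cl10 replicate 1 (0.45) or with DESeq2 (0.69), in a range of 0.000402 to 0.206. NOTCH4 was also higher in Cl10 than in Cl1 (1.51, adjusted p = 0.00103), at 0.407 to 1.68 CPM. No gene of this list rose in Cl1 by edgeR, at an unadjusted p under 0.05 or by DESeq2 (0 of 3 each). In Cl10 none passed by edgeR or DESeq2 (0 of 3), 1 fell with no filter or with the replicate block, and 1 was higher and 1 lower at an unadjusted p under 0.05. In Cl1, 2 genes fell in place of 1 with library size alone, no filter, at least 10 counts in every library, 1 fit over the 6 libraries, the replicate block, or a trend on GC content and length subtracted. Without control replicate 1, 2 fell in Cl1 and 1 fell in Cl10, without control replicate 2, 1 rose in Cl10, and without Cl10 replicate 1, 1 fell in Cl10.

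Of 14 genes for receptor processing and glycosylation, 13 were tested. In Cl1, 4 rose (FURIN, LFNG, ADAM10 and PSEN2) and 2 fell (MFNG and RFNG). In Cl10, 3 rose, POGLUT1 and ADAM10 among them, and 3 fell (LFNG, MFNG and RFNG). MFNG, a Fringe glycosyltransferase that modifies Notch receptors, had 8.70 and 9.96 CPM in the control, 4.72 and 4.62 CPM in Cl1, and 1.23 and 1.48 CPM in Cl10. No groups overlapped, and the control was highest. MFNG fell by a log2 fold change of -0.99 in Cl1 (SE 0.148, adjusted p = 0.000471) and of -2.78 in Cl10 (SE 0.161, adjusted p = 7.3e-05), with -1.79 for Cl10 against Cl1 (adjusted p = 3.59e-06). In Cl10 the median of its 50 nearest tested genes was -0.6. LFNG, another Fringe gene, was higher in Cl1 (0.77, adjusted p = 0.00057) and lower in Cl10 (-0.54, adjusted p = 0.0116). In Cl10 LFNG lay above its local median of -0.78. RFNG was lower in both (-0.34 and -0.98, adjusted p = 0.0495 and 0.00051), with a local median of -0.54 in Cl10. Its Cl1 result was just under the threshold. In Cl1, 1 gene of the list fell in place of 2 with DESeq2, its size factors, at least 10 counts in every library, the replicate block or the local median subtracted. MFNG passed in all of these, so the RFNG result was lost.

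PSEN2, a catalytic subunit of gamma-secretase, had 5.22 and 5.61 CPM in the control, 12.7 and 10.8 CPM in Cl1, and 5.86 and 5.49 CPM in Cl10. Both Cl1 libraries were above the others, and Cl10 overlapped the control. It rose in Cl1 by 1.13 (SE 0.146, adjusted p = 0.000167), with a local median of 0.36, and did not pass in Cl10 (0.08, adjusted p = 0.654), where its sign turned with the trend on GC content and length subtracted (-0.029). The clones differed by -1.05 (adjusted p = 1.02e-05). Between the clones, 1 gene of this list was higher and 8 lower in Cl10, with 2 higher under library size alone or the local median subtracted. In Cl1 the counts of this list were 6 and 2 without control replicate 1, 4 and 1 without its replicate 2, 2 and 1 when Cl1 replicate 1 was left out, and 3 and 1 when Cl1 replicate 2 was. In Cl10 they were 5 and 5 without control replicate 1, 1 and 2 without Cl10 replicate 1, and 0 and 3 without Cl10 replicate 2.

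Ligand endocytosis was represented by the ubiquitin ligases MIB1, MIB2, NEURL1 and NEURL1B, all 4 tested. NEURL1 had 210.1 and 186 CPM in the control, 139.7 and 145 CPM in Cl1, and 196 and 194 CPM in Cl10. Both Cl1 libraries were below the other 4. NEURL1 fell in Cl1, with a log2 fold change of -0.47 (SE 0.119, adjusted p = 0.0122) and did not pass in Cl10 (-0.02, adjusted p = 0.889), with a difference of 0.46 between the clones (adjusted p = 3.49e-05). The Cl1 result did not pass without Cl1 replicate 1 (-0.45, adjusted p = 0.171) or replicate 2 (-0.5, adjusted p = 0.117), in a range of 9.11e-06 to 0.171. In Cl10 NEURL1 took 0.063 when control replicate 1 was left out and -0.11 when replicate 2 was. NEURL1B also fell in Cl1 (-0.52, adjusted p = 0.0191) and rose in Cl10 (0.56, adjusted p = 0.0224). The list's counts were thus 0 higher and 2 lower in Cl1, 1 and 0 in Cl10, and 2 and 0 between the clones, each 0 by edgeR, by DESeq2 and at an unadjusted p under 0.05 alike. Without Cl1 replicate 1 or 2, 0 fell in Cl1. In Cl10 the counts were 2 and 1 without control replicate 1, 1 and 2 without control replicate 2, and 0 and 0 without Cl10 replicate 2, and 1 fell with the GC and length trend subtracted. Between the clones 1 was lower without Cl1 replicate 2.

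Of 8 genes of the nuclear complex and its corepressors, all tested, MAML2 rose in Cl1 and none fell by edgeR, by DESeq2 or at an unadjusted p under 0.05 (0 of 8 each). In Cl10, 4 rose, RBPJ, MAML1 and MAML2 among them, and MAML3 fell. MAML3, a Mastermind coactivator, had 2.57 and 2.43 CPM in the control, 2.14 and 2.46 CPM in Cl1, and 0.802 and 0.624 CPM in Cl10, from 47 and 30 counts in Cl10. Both Cl10 libraries were below the other 4. MAML3 fell in Cl10 by a log2 fold change of -1.79 (SE 0.217, adjusted p = 0.000901), did not pass in Cl1 (-0.12, adjusted p = 0.687), and differed between the clones by -1.67 (adjusted p = 8.69e-05). MAML2, of the same family, was higher in Cl1 (0.99, adjusted p = 0.00046) and in Cl10 (0.97, adjusted p = 0.00228). Between the clones 3 genes were higher and 1 lower in Cl10, which became 1 and 2 with the local median subtracted. That setting also gave 2 higher in Cl1 and 2 lower in Cl10 against the control. Without control replicate 1, 3 rose in Cl1, and 5 rose and 3 fell in Cl10. In Cl10, 2 fell without control replicate 2, and 2 rose without either Cl10 replicate. Between the clones, 3 were lower without Cl1 replicate 1, 2 without Cl1 replicate 2, and 2 higher without Cl10 replicate 1.

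Among 9 genes of turnover and inhibition, all tested, FBXW7 and DTX4 rose and DTX3 fell in Cl1, while FBXW7 and DTX3L rose and NUMBL, DTX1, DTX2 and DTX3 fell in Cl10. In Cl1 none of the list fell with the replicate block or the local median subtracted, so the DTX3 result was lost, and 2 fell with library size alone or 1 fit over the 6 libraries. DTX3 was at -0.44 in Cl10, above its local median of -0.82. DTX4, a Deltex ubiquitin ligase, had 22.5 and 19.1 CPM in the control, 42.6 and 41.7 CPM in Cl1, and 18.01 and 16.9 CPM in Cl10. No groups overlapped, and Cl1 stood well above. DTX4 rose in Cl1 by 1.02 (SE 0.116, adjusted p = 6.55e-05), with 0.91 and not called without control replicate 2 and with a local median of 0.46. It did not pass in Cl10 (-0.25, adjusted p = 0.103), with -0.36 without control replicate 2. It passed there with the local median of 0.6 subtracted (-0.84, adjusted p = 0.00131) or after the trend on GC content and length was subtracted (-0.36, adjusted p = 0.0325). The clones differed by -1.27 (adjusted p = 3.93e-08). DTX1 had 37 and 36 counts in the control, 19 and 17 in Cl1, and 12 and 1 in Cl10. It fell in Cl10 by a log2 fold change of -2.31 (SE 0.639, adjusted p = 0.0242), a size that rested on single libraries, with -4.71 without Cl10 replicate 1 and -1.55 without Cl10 replicate 2. It did not pass in Cl1 (-0.95, adjusted p = 0.0854) or between the clones (-1.36, adjusted p = 0.102), except for -3.76 without Cl10 replicate 1 (adjusted p = 0.008, range 0.008 to 0.546).

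Between the clones, 1 gene of turnover and inhibition was higher and 2 were lower in Cl10. In Cl1 the list's counts were 3 higher and 2 lower without control replicate 1, 2 and 2 without its replicate 2, 2 and 0 when Cl1 replicate 1 was left out, and 1 and 0 when Cl1 replicate 2 was. In Cl10, 2 fell without Cl10 replicate 1 and 1 without Cl10 replicate 2. Between the clones, 2 were higher without Cl1 replicate 2, with library size alone and with the local median subtracted. Of the other HES and HEY genes, 5 of 7 were tested against the control and 4 between the clones, where HEY2 was not tested. HES6, HES7 and HEYL fell in Cl1 and HES4 and HES7 in Cl10, with 0 of 5 higher in either clone by edgeR, by DESeq2 or at an unadjusted p under 0.05. In Cl1, 1 fell without either Cl1 replicate, and in Cl10, 1 rose without control replicate 2 and 1 fell without Cl10 replicate 2. Between the clones 2 were higher and 2 lower in Cl10.

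HES7, a HES-family repressor known as an oscillator in embryonic segmentation, had 35.8 and 43.3 CPM in the control, 10.4 and 12.4 CPM in Cl1, and 5.74 and 6.01 CPM in Cl10. The groups did not overlap, with the control highest and Cl10 lowest. HES7 fell by a log2 fold change of -1.8 in Cl1 (SE 0.136, adjusted p = 2.37e-06) and of -2.75 in Cl10 (SE 0.122, adjusted p = 3.61e-05). Cl10 was lower than Cl1 by -0.95 (SE 0.118, adjusted p = 3.01e-05). HES7 and HES2, 2 genes of the HES family, thus stood on opposite sides of the control in Cl1 and on the same side in Cl10.

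Genes of squamous commitment, the programme that Notch signalling is known to promote, and of the basal layer were followed as context. Of 12 commitment genes, 12 were tested in Cl1, where 8 rose (KRT1, KRT4, KRT13, IVL, DSC1, TGM1, GRHL3 and CALML5) and KRT10 fell, with a median of 0.69. Of all genes tested in Cl1, 12.4% rose and 12.8% fell. In Cl10, 11 were tested, KRT1, KRT4 and IVL rose and TGM1 fell, with a median of 0.26. Of all genes tested there, 20.6% rose and 21.8% fell. The study had already named KRT1, KRT4 and IVL as raised from these same libraries, so their rise here repeats that result. The Cl10 counts were 5 and 2 without control replicate 1 and 6 and 2 without control replicate 2. There 5 rose with DESeq2, library size alone or no filter, and 2 fell with no filter, 1 fit over the 6 libraries or the GC and length trend subtracted. In Cl1, 0 fell with DESeq2 or the replicate block, or without control replicate 2, Cl1 replicate 1 or Cl1 replicate 2, so the KRT10 result was lost. Between the clones 3 were higher and 5 lower in Cl10, where 24.9% of all genes tested were higher and 24.1% lower.

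KRT1, a suprabasal keratin, had 0.323 and 0.467 CPM in the control, 3.83 and 4.70 CPM in Cl1, and 14.5 and 12.1 CPM in Cl10. IVL, which encodes the cornified envelope precursor involucrin, had 0.368 and 0.542 CPM, 5.99 and 7.06 CPM, and 10.3 and 10.9 CPM in the same order. In both genes the groups did not overlap and Cl10 was highest. KRT1 rose by 3.44 in Cl1 (adjusted p = 2.26e-06) and 5.1 in Cl10 (adjusted p = 2.43e-05), with 1.66 between the clones (adjusted p = 7.17e-07). IVL rose by 3.86 in Cl1 (adjusted p = 3.74e-07) and 4.56 in Cl10 (adjusted p = 2.85e-05), with 0.7 between the clones (adjusted p = 0.000253). KRT4, a mucosal keratin, had 0.118 and 0.224 CPM in the control, 0.861 and 0.896 CPM in Cl1, and 1.18 and 1.08 CPM in Cl10. It rose by 2.39 in Cl1 (adjusted p = 0.00126) and 2.76 in Cl10 (adjusted p = 0.00128), and the clones did not differ at the threshold (0.37, adjusted p = 0.252) except with the local median subtracted (0.92, adjusted p = 0.0108, range 0.0108 to 0.558). DSC1, a desmosomal cadherin, had 7 and 1 counts in the control, 23 and 22 in Cl1, and 3 and 4 in Cl10, where it was not tested against the control. It rose in Cl1 by 2.55 (adjusted p = 0.00979), with 4.23 without control replicate 1 and 1.91 without control replicate 2, with -2.52 for Cl10 against Cl1 (adjusted p = 0.00245).

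Of 7 basal genes, all tested, KRT15 and ITGA6 rose in both clones. Of all genes tested, 12.4% rose and 12.8% fell in Cl1, and 20.6% rose and 21.8% fell in Cl10. Between the clones, 24.9% were higher and 24.1% lower in Cl10. No basal gene fell in Cl1 by edgeR (0 of 7), and 1 fell by DESeq2, with library size alone, with no filter, with 1 fit over the 6 libraries and at an unadjusted p under 0.05. In Cl10, 0 of 7 fell by edgeR, by DESeq2 or at an unadjusted p under 0.05. The medians were 0.25 and 0.22. KRT15, a keratin of basal cells, had 187 and 203 CPM in the control, 483 and 501.5 CPM in Cl1, and 355 and 335 CPM in Cl10. The groups did not overlap. It rose by 1.34 in Cl1 (adjusted p = 1.35e-05) and 0.83 in Cl10 (adjusted p = 0.000552), with -0.51 between the clones (adjusted p = 2.58e-05). Between the clones 2 basal genes were higher and 3 lower in Cl10, and 4 were higher without either Cl1 replicate, with DESeq2, with library size alone or with no filter. With the local median subtracted 1 was lower. In Cl1, 3 rose without control replicate 1, 1 fell without control replicate 2, and 1 rose without either Cl1 replicate. In Cl10, 5 rose without control replicate 1, and 4 rose and 2 fell without control replicate 2.

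Cell type markers were read to check the labelled squamous carcinoma cells. Detection and abundance are by the mean CPM of the 6 libraries. Marker results stand beside shares over all genes tested of 12.4% higher and 12.8% lower in Cl1. In Cl10 these shares were 20.6% and 21.8%, and between the clones 24.9% and 24.1%. All 5 squamous epithelial markers had a mean of at least 1 CPM. KRT5 was most abundant, although KRT14 lay above it in both Cl10 libraries (4779 and 4524 against 4723 and 4468 CPM), with sums of all 5 of 9550.0 and 9768 CPM in the control, 11226 and 11421 CPM in Cl1, and 10531 and 10038 CPM in Cl10. CDH1 rose in Cl1 (0.84, adjusted p = 0.000733) and in Cl10 (0.35, adjusted p = 0.0262), where none of the 5 passed without either Cl10 replicate. Salivary acinar markers were near 0, with 0 of 5 at 1 CPM, BHLHA15 most abundant, sums of 0.188 to 0.426 CPM, and AMY1A, AQP5 and STATH at 3 counts or fewer in every library. All 4 luminal duct keratins were detected, with KRT19 most abundant and sums of 3597 and 4090.0 CPM in the control, 4493 and 4065 CPM in Cl1, and 2306 and 2226 CPM in Cl10. All 4 duct keratins fell in Cl10, and 3 did without either Cl10 replicate. KRT7 rose in Cl1 (1.59, adjusted p = 2.45e-06). Of 3 myoepithelial markers 1 had a mean of 1 CPM, MYH11, with sums of 5.12 and 4.5 CPM in the control, 3.8 and 3.87 CPM in Cl1, and 3.41 and 3.28 CPM in Cl10. ACTA2 had 1.44 and 1.64 CPM in the control, above that level, from 98 and 88 counts, with 29 and 34 counts in Cl1, and 9 and 13 in Cl10. It fell in Cl1 (-1.48, adjusted p = 0.00368) and in Cl10 (-2.87, adjusted p = 0.000722), and differed between the clones (-1.39, adjusted p = 0.0219). No myoepithelial marker was lower in Cl10 than Cl1 with DESeq2 or when Cl1 replicate 2 or Cl10 replicate 1 was left out. Fibroblast markers had 1 of 5 detected, COL1A1, with sums of 31.7 and 27.3 CPM, 30.9 and 32.2 CPM, and 18.7 and 18.8 CPM, and COL1A2 and LUM at 3 counts or fewer. COL1A1 fell in Cl10 (-0.67, adjusted p = 0.00192), where its local median was -0.57. Endothelial markers had 1 of 4 detected, VWF, with sums of 4.41 and 2.73 CPM, 5.68 and 7.75 CPM, and 4.15 and 3.2 CPM, and PECAM1 and KDR at 3 counts or fewer. VWF rose in Cl1 (0.93, adjusted p = 0.0102). CDH5 rose in Cl10 (2.28, adjusted p = 0.0229), from 7 and 5 counts in the control to 41 and 12, and no endothelial marker rose there without Cl10 replicate 1. Leukocyte markers had 0 of 5 detected, CD68 most abundant, sums of 0.279 to 0.649 CPM, with CD3E among those at 3 counts or fewer. The part of the marker differences in the Notch results was not tested.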

How the data were processed

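RNA of A253 cells was sequenced in paired ends from poly(A)-selected libraries, and the deposited raw counts per gene of the 6 libraries of the DUSP1 experiment were used. For these the authors used HISAT2 on hg38 for alignment and HTSeq for counting, and the submitters' processing notes also name StringTie and DESeq. The gene annotation and the strand setting are not given in the sources used here. Column names are codes that do not repeat the sample titles. Their endings were read as group and replicate number to match them with the titles. Of the 58735 gene identifiers, 58207 were found in GENCODE 44, with 99.9% of the counts, and it gave positions and lengths. Library totals ran from 47016495 to 70986593 counts.

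Each comparison was fitted in edgeR 4.0.16 (R 4.3.3) to its own 4 libraries. The steps were filterByExpr, TMM scaling, estimateDisp and the quasi-likelihood functions glmQLFit and glmQLFTest, two-sided, with Benjamini-Hochberg adjustment over all genes tested. Genes passed at an adjusted p under 0.05 and were called if the absolute log2 fold change also exceeded 1. Each standard error is the size of the unshrunk log2 fold change over the square root of F. CPM per library use 1 scaling over the 6 libraries and, per kb, the length of merged exons. A floor of 3 counts was used for markers, which covers counting error only. The code was tested on simulated data.

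The members and lists were chosen with earlier results of these data known. Named genes are the 10 members, DUSP1 and, of each other list, up to 4 genes called in either clone against the control, by fold change, or else the gene with the smallest adjusted p. Alternatives were DESeq2 1.42.0, its size factors in edgeR, library size alone, no filter, at least 10 counts in every library, 1 fit over the 6 libraries, the replicate number as a block, the local median (50 nearest tested genes) subtracted, and each library left out, and for shares other lengths. A spline trend on GC content and length (5 degrees of freedom per term) and a block with crossed replicate numbers were chosen after seeing the data. Libraries of the SOX2 comparison, a separate experiment, were not analysed here.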

Additional observations from a re-analysis of the deposited data

Results flagged for a closer look

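Of the 10 members, 8 differed between the clones by the direct test of Cl10 against Cl1 (edgeR's quasi-likelihood test, Benjamini-Hochberg adjusted p under 0.05), which is why they are listed here. All 8 were lower in Cl10, where 24.1% of all 19818 genes tested were lower and 24.9% higher. The number was 5 without Cl10 replicate 1 and 6 without Cl10 replicate 2. The log2 fold changes of Cl10 against Cl1 were -2.58 for NOTCH3, -1.27 for HES2, -0.91 for NOTCH1, -0.75 for DLL1, -0.52 for HEY1, -0.4 for HES1, -0.29 for JAG2 and -0.23 for NRARP. DUSP1 differed by 0.48.

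Of the 14 other genes named, DUSP1 among them, 12 differed between the clones by the same test. Most of them were named because they were called against the control, so this count is not set against the shares of all genes. In the pathway lists they were MFNG (-1.79), MAML3 (-1.67), DTX4 (-1.27), PSEN2 (-1.05), HES7 (-0.95), NEURL1 (0.46) and DLL3 (0.68). In the squamous lists they were DSC1 (-2.52), KRT15 (-0.51), IVL (0.7) and KRT1 (1.66). With 2 libraries in each group, it could not be tested which library of a differing pair, such as the control pair, was the outlier.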

How the results depend on the processing

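Of 270 values for the members under alternatives other than leaving out a library, 247 kept their direction and their side of the threshold, 4 no longer passed, 12 passed newly and 7 changed sign; of 120 with 1 library left out, 91 kept both. Signs turned with the local median subtracted for HEY1 in Cl1 (0.032) and DLL1 in Cl10 (0.51), with library size alone for NRARP in Cl1 (-0.03) and JAG1 between the clones (0.068), with the GC content and length trend, chosen after seeing the data, for NOTCH2 (-0.036) and PSEN2 (-0.029) in Cl10, and for JAG1 between the clones with DESeq2 (0.0058) and with no filter (0.0041). Members higher in Cl10 were 2 in place of 1 with DESeq2, no filter, 1 fit over the 6 libraries, the replicate block and the local median. The cause was not tested. With the replicate block, 4841 genes passed in Cl1, 8681 in Cl10 and 9894 between the clones, and with crossed numbers 6894, 9927 and 9982. Deviations from the group mean of libraries with the same number correlated at -0.162 for control and Cl1, -0.124 for control and Cl10 and 0.00462 for the clones, over 20582 genes. With library size alone, 37.8% of genes that passed in Cl1 were higher, against 49.2%, and 60.0% between the clones, against 50.8%. Leaving out 1 library, with a lone library assumed to vary like the other group, gave 2718 to 7146 genes passed in Cl1, 5141 to 11888 in Cl10 and 7240 to 10692 between the clones, and members higher of 4 to 7 in Cl1 and 0 to 3 in Cl10, and lower of 2 to 8 in Cl10 and 5 to 8 between the clones. Ranges that crossed 0 were -0.11 to 0.62 for NOTCH2, -0.29 to 0.061 for HEY1 and -0.0072 to 0.086 for NRARP in Cl1, -0.48 to 0.034 for NOTCH1, -0.23 to 0.5 for NOTCH2 and -0.11 to 0.063 for NEURL1 in Cl10, and -0.062 to 0.045 for JAG1 between the clones.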
